A study of Bos taurus with 28 samples.

Results

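The miRNA cargo of milk extracellular vesicles (EVs) was compared between Day 4 and Day 1 of a milk collection on consecutive days. The comparison takes every library whose title names Day 4 (8 libraries) and every library whose title names Day 1 (8 libraries), which is 16 of the 28 libraries of the study. Both groups hold the same 4 healthy dairy cows, and each cow gave a library from the morning and from the evening milking on each of these days, so that 8 pairs of the same cow and milking session could be formed. The other 12 libraries come from Day 2 (6 libraries, without Cow 1) and Day 3 (6 libraries, without Cow 3). No animal was treated, and all were chosen for a negative California Mastitis Test and a low somatic cell count (SCC). EVs were isolated from skimmed milk by acid precipitation of the casein, filtration and ultracentrifugation, and their small RNA was sequenced. The cows belong to 1 herd and the days come from a single series without a repeat, so a day cannot be told apart from whatever else differed between the collections. The study was set up to compare milking sessions, and the days between which the cargo is compared here are its repeats.

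miRNAs are short RNAs that guide Argonaute proteins to messenger RNAs and lower their translation or stability. Cells release a part of them in EVs, whose membrane protects the RNA from the RNases of milk. Milk EVs come largely from the secretory epithelium of the udder, with a share from leukocytes, so their cargo is studied as a readout of udder health. A day-to-day comparison in healthy cows bears on the background variation of such a readout, here for Day 4 and Day 1 alone. No milking has a repeat library, so variation from preparation and counting is included and cannot be separated. The values do not tell whether a level is set by the number of EVs that carry a miRNA or by the amount in each EV.

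The levels are log2 CPM (CPM, reads scaled to a common library size) of 132 miRNAs. The read totals behind them were 104783 to 254454 (median 147709) in the Day 4 libraries and 101968 to 189669 (median 164380) in the Day 1 libraries. The mean log2 ratio of Day 4 to Day 1 totals was -0.0092 (SD 0.40), with 4 pairs higher and 4 lower (exact permutation of the signs of the 8 pairs, two-sided, p = 0.922). A miRNA without reads stands at 3.55 on the log2 CPM scale, and 50 of the 2112 values of these libraries stand there. With 0 reads, up to 3 remain possible by counting error alone, or 10.8 to 32.4 CPM in these libraries. The 10 most abundant miRNAs of a library took 63.6% to 74.8% of its reads on Day 4 and 66.3% to 74.6% on Day 1. The library sizes used for scaling were 0.86 to 1.35 times the read totals on Day 4 and 0.91 to 1.23 times on Day 1. In the morning libraries of Cow 4 this factor was 0.86 on Day 4 and 1.23 on Day 1. Their share of the 10 most abundant miRNAs was 74.8% and 66.3%.

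SCC, the number of shed cells per mL of milk and the routine measure of udder inflammation, was 31000 to 67000 cells/mL (median 45000) on Day 4 and 18000 to 79000 cells/mL (median 45000) on Day 1. The mean log2 ratio of Day 4 to Day 1 was 0.050 (SD 0.81), with 4 pairs higher, 3 lower and the remaining pair equal (exact permutation of the signs of the 8 pairs, two-sided, p = 0.859). Taken over the 4 cow means, the same exact test gave p = 1, where the smallest p it allows is 0.125. SCC thus overlapped between the 2 days, and the Day 1 values spanned the wider range.

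The order of abundance was nearly the same on both days. let-7a-5p, a member of the let-7 family that is known for promoting cell differentiation, was the most abundant miRNA in 16 of 16 libraries. It averaged 17.43 ± 0.36 log2 CPM on Day 4 and 17.34 ± 0.31 log2 CPM on Day 1 (SD, n = 8 libraries each). Among the 10 miRNAs with the highest mean, 9 were common to both days, and among the highest 50, 49 were. Across the 132 miRNAs, Pearson's r between the means of Day 4 and Day 1 was 0.997 and Spearman's rho was 0.994. These coefficients describe miRNAs and not replicates, and they are carried by the wide range of abundance.

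No miRNA passed the test between Day 4 and Day 1. In limma, with the pair of cow and session as a block and with p-values adjusted over the 132 miRNAs, 0 miRNAs (0.0%) were higher and 0 (0.0%) were lower on Day 4 at a false discovery rate (FDR) below 0.05. At an unadjusted p below 0.05, 2 miRNAs (1.52%) were higher and 1 (0.758%) was lower. A limma-voom fit to the read counts also gave 0 calls, with 2 miRNAs higher and 0 lower at an unadjusted p below 0.05. The smallest adjusted p in limma was 0.890. The p-values rest on the spread between 8 pairs, of which each cow supplied a morning and an evening pair, and with both sessions averaged per cow limma again called 0 miRNAs. The levels of the 2 days overlapped for all 132 miRNAs, and 0 miRNAs had all 8 pairs higher and 0 had all 8 pairs lower.

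The intervals show how large a difference could have been missed. The difference is the mean of Day 4 minus Day 1 over the 8 pairs, on the log2 scale, and its 95% interval comes from limma. The interval takes the 8 pairs as independent, although each cow supplied a morning and an evening pair. For 111 of the 132 miRNAs (84.1%) the interval lay within a 2-fold change in either direction, and for 57 (43.2%) it lay within a 1.5-fold change. The 111 include miR-190b, with 0 reads in 12 of the 16 libraries and an interval of -0.72 to 0.36. Where most values stand at 0 reads, the interval does not bound a change. Of the 94 miRNAs with a mean of at least 7 log2 CPM, 91 were within 2-fold and 57 within 1.5-fold. The standard error had a median of 0.18 in these 94 miRNAs, against 0.31 in the 38 with less. The absolute difference had a median of 0.14 over all miRNAs, and none reached 1 on the deposited values. Near 0 reads it depends on the constant added to the counts. For miR-11976 limma-voom gave 1.61, against 0.83 here. The absolute difference was over 0.5 in 8 miRNAs, of which 6 had a mean below 7 log2 CPM.

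**Figure D1:**
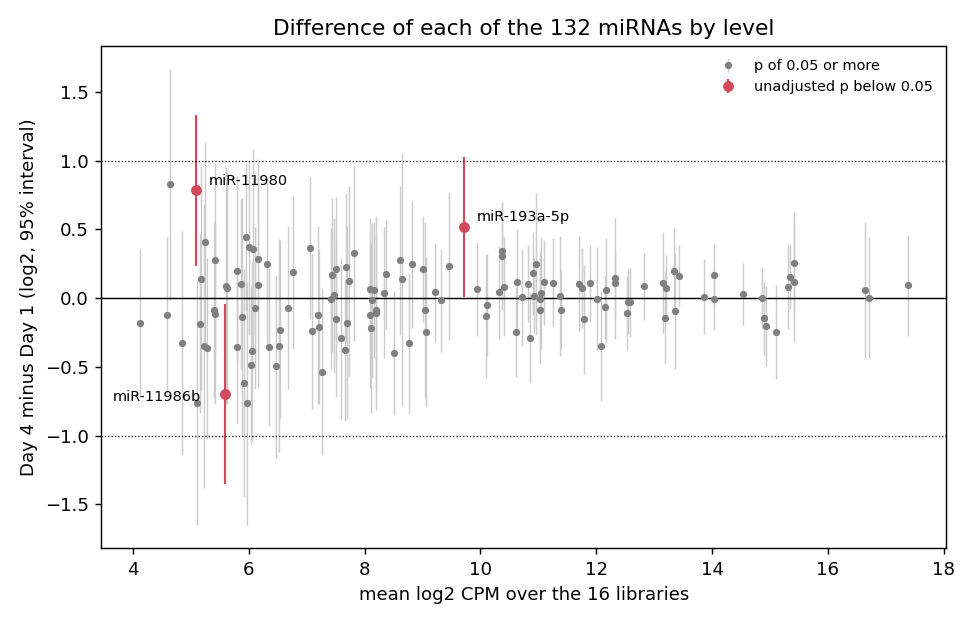
Each point is 1 of the 132 miRNAs, with its mean log2 CPM over the 16 libraries on the x axis and its Day 4 minus Day 1 difference (log2) on the y axis. Bars are 95% intervals from limma, dotted lines mark a 2-fold change, and the 3 miRNAs with an unadjusted p below 0.05 are in red. The bars narrow with abundance, and none of the 3 passed the FDR threshold.

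miR-11980, a miRNA numbered in cattle, had the smallest p. In Cow 1 to Cow 4 its morning libraries had 5.58, 4.78, 6.36 and 4.85 log2 CPM on Day 4, against 4.55, 5.06, 5.76 and 4.04 log2 CPM on Day 1. Its evening libraries had 5.79, 4.26, 6.51 and 5.69 log2 CPM on Day 4, against 4.86, 3.55, 5.40 and 4.35 log2 CPM on Day 1. It was thus higher on Day 4 in 7 of 8 pairs, with the morning pair of Cow 2 as the exception, while the levels of the days overlapped. The difference was 0.78 (standard error 0.26, 95% interval 0.23 to 1.33), which is 1.72-fold. limma gave an adjusted p of 0.890, and the exact permutation of the signs of the 8 pairs gave p = 0.0156. Here and below, this permutation takes the 8 pairs as independent, although each cow supplied a morning and an evening pair. It is not adjusted over the 132 miRNAs, and over 4 cow means the smallest p it allows is 0.125. The counts are small, with 53 reads over the Day 4 libraries, against 22 over the Day 1 libraries, and 14 reads at most in a library. Without Cow 2 the difference was 0.97 and the adjusted p of limma was 0.0188. In that fit the values of miR-190b, which has reads in Cow 2 alone among these libraries, have next to no spread, and without Cow 2 and miR-190b the adjusted p of miR-11980 was 0.524. Over all alternatives its adjusted p ran from 0.0188 to 0.988.

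miR-193a-5p, described in human tumours as a suppressor of growth, was the second of the 2 higher miRNAs. Its morning libraries had 10.002, 9.11, 10.25 and 10.81 log2 CPM in Cow 1 to Cow 4 on Day 4, against 10.23, 8.39, 10.23 and 8.66 log2 CPM on Day 1. Its evening libraries had 9.64, 8.74, 10.30 and 10.97 log2 CPM on Day 4, against 9.995, 8.48, 9.51 and 10.17 log2 CPM on Day 1. Both pairs of Cow 1 were lower on Day 4 and the other 6 were higher, with the morning of Cow 4 far above the rest. The difference was 0.52 (standard error 0.24, 95% interval 0.012 to 1.03, adjusted p = 0.890 in limma, exact sign permutation p = 0.0859). Without Cow 4 it was 0.20, and without the morning pair of Cow 4 it was 0.29.

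miR-11986b, another miRNA numbered in cattle, was the lower one. Its morning libraries had 6.33, 3.55, 5.32 and 4.34 log2 CPM in Cow 1 to Cow 4 on Day 4, against 5.55, 4.49, 6.18 and 5.99 log2 CPM on Day 1. Its evening libraries had 5.93, 5.61, 5.33 and 5.49 log2 CPM on Day 4, against 6.34, 5.40, 6.89 and 6.62 log2 CPM on Day 1. All 4 pairs of Cow 3 and Cow 4 were lower on Day 4, whereas Cow 1 and Cow 2 each had a higher and a lower pair. The difference was -0.70 (standard error 0.31, 95% interval -1.35 to -0.040, adjusted p = 0.890 in limma, exact sign permutation p = 0.0625). It rests on 48 reads on Day 4 and 78 on Day 1.

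**Figure D2:**
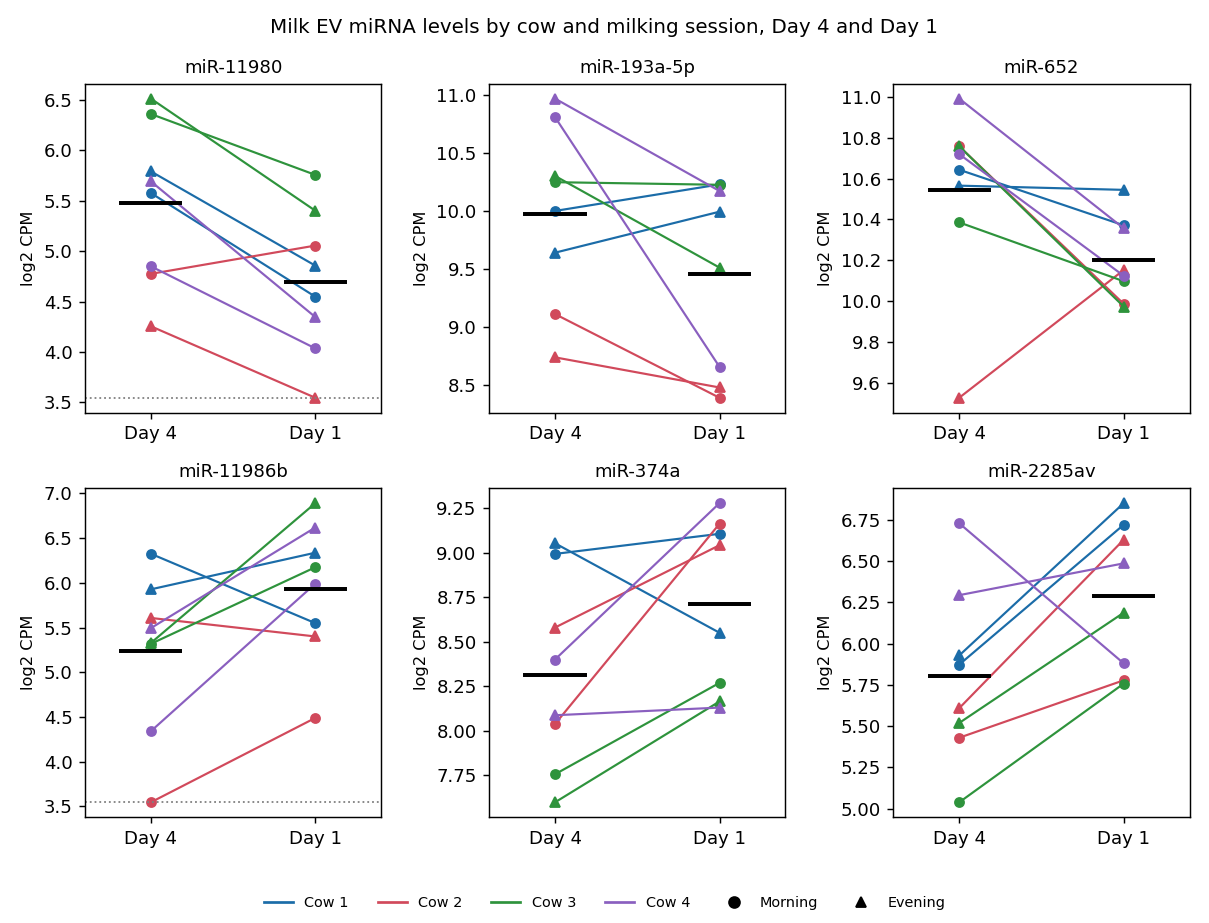
Each line joins the Day 4 library (left) to the Day 1 library (right) of the same cow and milking session for 6 miRNAs, on an axis of log2 CPM. Colours are cows, circles are morning and triangles evening libraries, black bars are the means of 8 libraries, and the dotted line marks 0 reads. Lines run in opposite directions in every panel, with 7 of 8 pairs higher on Day 4 for miR-11980 and miR-652 and 7 of 8 lower for miR-374a and miR-2285av.

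Few miRNAs moved alike over the pairs. On Day 4, 3 miRNAs (2.27%) were higher in 7 of 8 pairs, namely miR-11980, miR-652 and miR-22-3p, and 2 (1.52%) were lower in 7 of 8 pairs, namely miR-374a and miR-2285av. miR-22-3p was named here after its values had been seen. It had 6.72 to 7.67 log2 CPM (median 7.27) on Day 4 and 6.26 to 7.68 log2 CPM (median 6.84) on Day 1. Its difference was 0.37 (standard error 0.24, adjusted p = 0.890 in limma, exact sign permutation p = 0.0938).
miR-652 was abundant enough to be measured closely, with 2020 reads on Day 4 and 1590 on Day 1. Its morning libraries had 10.64, 10.76, 10.39 and 10.72 log2 CPM in Cow 1 to Cow 4 on Day 4, against 10.37, 9.99, 10.10 and 10.12 log2 CPM on Day 1. Its evening libraries had 10.57, 9.53, 10.76 and 10.99 log2 CPM on Day 4, against 10.54, 10.15, 9.97 and 10.36 log2 CPM on Day 1. Only the evening pair of Cow 2 was lower on Day 4, and that library was the lowest of all 16. The difference was 0.34 (standard error 0.17, 95% interval -0.015 to 0.70, exact sign permutation p = 0.0859).
miR-374a, which in humans lies on the X chromosome in the FTX gene, had 8.99, 8.04, 7.76 and 8.40 log2 CPM in the morning libraries of Cow 1 to Cow 4 on Day 4, against 9.11, 9.16, 8.27 and 9.28 log2 CPM on Day 1. Its evening libraries had 9.05, 8.58, 7.60 and 8.09 log2 CPM on Day 4, against 8.55, 9.04, 8.17 and 8.13 log2 CPM on Day 1. The evening of Cow 1 was the exception to a lower Day 4 level. The difference was -0.40 (standard error 0.21, 95% interval -0.85 to 0.052, exact sign permutation p = 0.0469), with an adjusted p of 0.890 in limma. For miR-2285av, of a large ruminant family, the levels were 5.04 to 6.73 log2 CPM (median 5.74) on Day 4 and 5.76 to 6.85 log2 CPM (median 6.34) on Day 1. The morning of Cow 4 ran against its other pairs, and the difference was -0.48 (standard error 0.27, exact sign permutation p = 0.0625).

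The other miRNAs with small p-values among those higher on Day 4 were miR-11976, miR-6529a, miR-24-3p, miR-375 and miR-92a, all with an adjusted p of 0.890 in limma. miR-11976 had the largest difference of all, at 0.83 (standard error 0.39, 95% interval -0.011 to 1.67, exact sign permutation p = 0.125). It had 38 reads on Day 4, of which 17 came from the evening library of Cow 4, and 10 reads on Day 1. It stood at 0 reads in 4 of the 16 libraries, so that the fitted value depends on the constant added to the counts, and limma-voom gave 1.61. miR-6529a had 5.52 to 6.93 log2 CPM (median 6.14) on Day 4 and 4.75 to 6.26 log2 CPM (median 5.83) on Day 1, with 6 of 8 pairs higher and a difference of 0.45 (exact sign permutation p = 0.0469). miR-24-3p, of the miR-23/27/24 clusters, had 9.79 to 11.10 log2 CPM (median 10.61) on Day 4 and 9.81 to 10.50 log2 CPM (median 10.28) on Day 1, with 5 of 8 pairs higher and a difference of 0.31 (exact sign permutation p = 0.156). For both, the levels on the 2 days overlapped widely.
miR-375, known from epithelial and endocrine cells, had 13.10 to 14.22 log2 CPM (median 13.46) on Day 4 and 12.76 to 13.95 log2 CPM (median 13.34) on Day 1. Its paired differences were among the tightest, from -0.12 to 0.35, with 6 of 8 pairs higher and a mean of 0.16 (standard error 0.10, exact sign permutation p = 0.0391). miR-92a, encoded in the miR-17/92 cluster, had 13.24 to 14.87 log2 CPM (median 14.18) on Day 4 and 13.31 to 14.66 log2 CPM (median 13.98) on Day 1, with 6 of 8 pairs higher and a mean of 0.17 (standard error 0.11, exact sign permutation p = 0.0625).

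Among those lower on Day 4 were miR-101, miR-30e-5p, miR-148d, miR-194 and miR-2284ab, again with an adjusted p of 0.890 in limma. miR-101, which in human cells targets the histone methyltransferase EZH2, had 6.36 to 8.30 log2 CPM (median 6.80) on Day 4 and 6.85 to 8.09 log2 CPM (median 7.63) on Day 1. Its difference was -0.54 (standard error 0.28, exact sign permutation p = 0.102), with the lowest values in both pairs of Cow 3, at -1.73 and -1.32. miR-30e-5p had 10.18 to 11.17 log2 CPM (median 10.83) on Day 4 and 10.76 to 11.24 log2 CPM (median 10.98) on Day 1, and a difference of -0.29 (standard error 0.15, exact sign permutation p = 0.109). miR-148d had 11.12 to 12.72 log2 CPM (median 11.91) on Day 4 and 11.80 to 12.74 log2 CPM (median 12.25) on Day 1, and a difference of -0.35 (standard error 0.19, exact sign permutation p = 0.188). For both, the evening pair of Cow 3 had the lowest value, at -1.07 for miR-30e-5p and -1.61 for miR-148d.
miR-194, known from liver and gut epithelium, had the lowest mean difference, at -0.77 (standard error 0.41, exact sign permutation p = 0.180), and Cow 2 held most of it. Cow 2 had 0 reads in the morning and 1 in the evening of Day 4, against 7 in the morning and 24 in the evening of Day 1. Without Cow 2 the difference was -0.10. miR-2284ab had a difference of -0.76 (standard error 0.42, exact sign permutation p = 0.180), with 39 reads on Day 4 and 49 on Day 1, and 4 of 8 pairs lower. Its interval, from -1.65 to 0.13, was among the widest.

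The 10 most abundant miRNAs all had differences within 0.26 of 0. let-7b averaged 16.72 ± 0.48 log2 CPM on Day 4 and 16.72 ± 0.43 on Day 1 (SD, n = 8 each), with a difference of 0.0034 (95% interval -0.44 to 0.44). miR-3596 had a difference of 0.060 (-0.44 to 0.56), let-7c of 0.12 (-0.32 to 0.56), let-7f of 0.084 (-0.23 to 0.39) and let-7a-5p of 0.092 (-0.27 to 0.46). Single pairs moved further than these means, from -1.18 to 1.58 for miR-3596 and from -0.89 to 1.26 for let-7b. For both miRNAs the lowest was the morning pair of Cow 3 and the highest the morning pair of Cow 4. Their levels were also close, with a mean of 16.67 log2 CPM for miR-3596 on Day 4. They may thus not be separate measurements, and whether they share reads was not tested. miR-2340, a bovine-numbered miRNA of high abundance, had 15.54 ± 0.72 log2 CPM on Day 4 and 15.29 ± 0.94 on Day 1, with a difference of 0.25 (-0.12 to 0.63). The epithelial miR-200c, which holds the epithelial state by repressing ZEB factors, had 15.42 ± 0.25 log2 CPM on Day 4 and 15.26 ± 0.22 on Day 1, with a difference of 0.15 (-0.078 to 0.39).
miR-148a, the hallmark miRNA of milk and a regulator of the DNA methyltransferase DNMT1, had 14.99 ± 0.38 log2 CPM on Day 4 and 15.23 ± 0.30 on Day 1. It was lower on Day 4 in 6 of 8 pairs, with both pairs of Cow 2 higher, and its difference was -0.25 (-0.59 to 0.093). miR-30a-5p had 14.82 ± 0.23 log2 CPM on Day 4 and 15.03 ± 0.39 on Day 1, was lower in 6 of 8 pairs and had a difference of -0.20 (-0.50 to 0.087). miR-21-5p, found in both leukocytes and epithelium, had 14.82 ± 0.36 log2 CPM on Day 4 and 14.97 ± 0.14 on Day 1, with a difference of -0.15 (-0.41 to 0.12). None of these 10 passed the FDR threshold in limma.

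Steadiness over the pairs was read from the paired differences. The 5 smallest standard deviations of the 8 paired differences belonged to miR-200c (0.16), miR-26c (0.16), miR-375 (0.17), miR-200b (0.17) and miR-27b (0.19). miR-26c had 14.86 ± 0.23 log2 CPM on Day 4 and 14.86 ± 0.12 on Day 1, with a difference of 0.0029 (95% interval -0.22 to 0.23). miR-200b had 14.55 ± 0.24 log2 CPM on Day 4 and 14.52 ± 0.20 on Day 1, with a difference of 0.030 (-0.20 to 0.26). For miR-27b the values were 12.12 ± 0.21 log2 CPM on Day 4 and 12.19 ± 0.16 on Day 1, with a difference of -0.063 (-0.29 to 0.17). Of these 5, miR-200c, miR-200b and miR-375 are on the list of epithelial markers, whose other measured members had 0.22 (miR-200a), 0.32 (miR-429) and 0.41 (miR-141). Each of the 5 had at least 417 reads in every library.

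Families, clusters and marker lists were then read against all measured miRNAs, of which 71 of 132 (53.8%) had a positive difference, with a median of 0.017. In none of the 24 lists did a member pass the FDR threshold in limma in either direction. The let-7 family had 8 of 9 members with a positive difference and a median of 0.084, from -0.0028 for miR-98 to 0.14 for let-7d, with 0.11 for let-7i. Its summed level was higher on Day 4 in 3 of 8 pairs. Since let-7 members are near-identical in sequence, a read may fit several of them, and their values may not be fully separate measurements, which was not tested. In the morning pair of Cow 4, let-7b had 1.26 and let-7c had 1.30, whereas let-7f had -0.079. The miR-200 family had a median of 0.030, from -0.25 for miR-141 to 0.15 for miR-200c. The miR-30 family had 4 of 6 members below 0 and a median of -0.10, and the miR-148 family had 3 of 4 below 0 and a median of -0.17. The miR-29 family, which targets collagens and DNA methyltransferases, had a median of -0.18 with -0.37 for miR-29c.
The miR-15/16 family had 3 of 3 members above 0 and a median of 0.17, with 0.37 for miR-15b and 0.17 for miR-16b. The miR-25/92 family had 4 of 5 above 0 and a median of 0.17, whereas its member miR-363 had -0.62 (standard error 0.39). In the miR-17 family, miR-93 had 0.22 and miR-20a had -0.37. The miR-26 family had a median of 0.0029, with 0.077 for miR-26b and -0.015 for miR-26a. The miR-103 and miR-107 family had 0.18 for miR-103 and -0.36 for miR-107, and the miR-320 family had 0.11 for miR-320a and -0.19 for miR-320b. The members below 0 had few reads, with 81 on Day 4 and 118 on Day 1 for miR-107, and 32 and 39 for miR-320b. The 95% interval of each of these miRNAs included 0. The miR-374 family had a median of -0.24, with -0.24 for miR-374c. The miR-99 and miR-125 paralogs had a median of -0.12, with -0.14 for miR-125a and -0.11 for miR-99a-5p.
Members of a cluster can share a primary transcript. In the RefSeq annotation, to which 130 of the 132 names were matched, the genes of miR-182 and miR-183 lie within 10 kb of each other, and their differences were -0.15 and 0.036. For the miR-23/27/24 clusters the median was -0.073, with -0.084 for miR-23a. In the miR-532/660 cluster, miR-502a had -0.50 and miR-362-5p had 0.25. With any 1 pair left out they ran from -0.75 to -0.37 for miR-502a and from 0.086 to 0.36 for miR-362-5p. In the Hox clusters, miR-196a had 0.060 and miR-10b had -0.13, the latter with 0 reads in 7 of the 16 libraries. The miR-2284 and miR-2285 family had 5 of 7 below 0 and a median of -0.050, and the other bovine-numbered miRNAs had 16 of 21 above 0 and a median of 0.11, from -0.70 for miR-11986b to 0.83 for miR-11976. These counts describe the lists, and no list was tested.

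**Figure D3:**
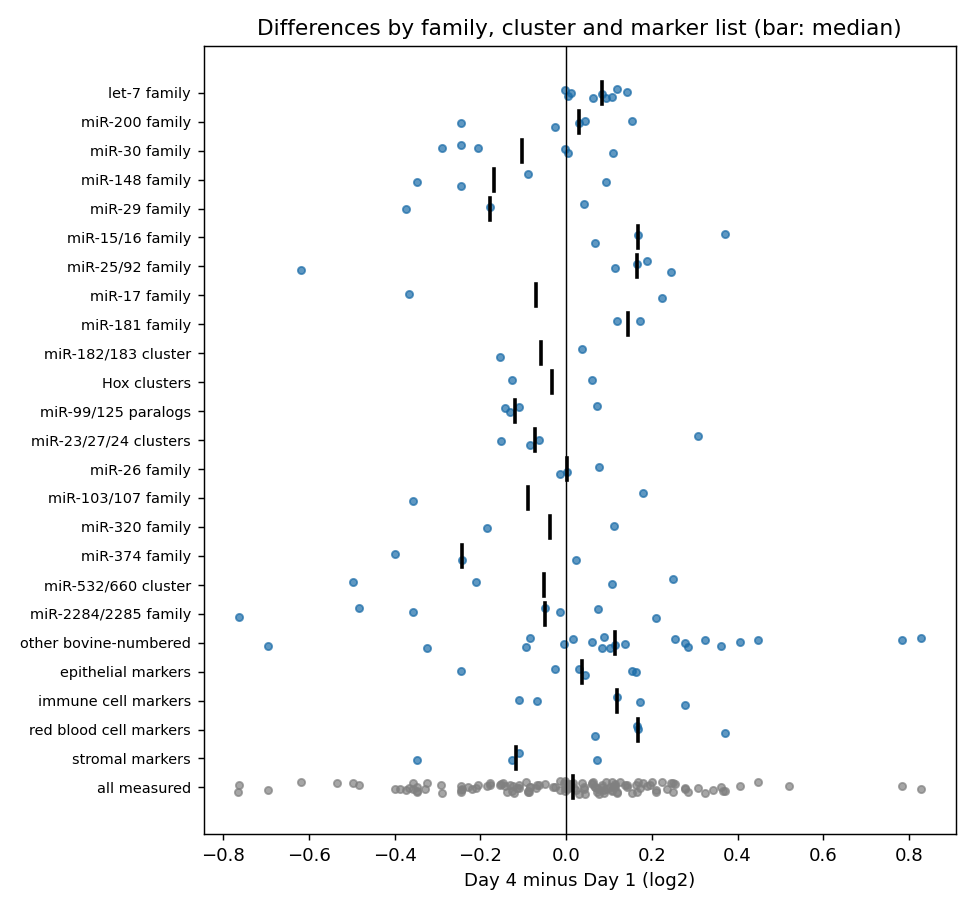
Each point is the Day 4 minus Day 1 difference (log2, x axis) of 1 miRNA, by list on the y axis, with the median of each list as a black bar and all 132 miRNAs in the last row. Vertical scatter within a row has no meaning. The list medians lie between -0.24 and 0.17, and each list of more than 3 members other than the red blood cell markers has members on both sides of 0.

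The marker lists check the cell types that milk EVs may come from. Of the epithelial markers, 6 were measured, and their summed level was 72862 to 102867 CPM on Day 4 and 71298 to 91581 CPM on Day 1, higher on Day 4 in 6 of 8 pairs. The median difference of the 6 was 0.037. These markers were thus abundant in all 16 libraries, while miR-203 and miR-205 were not among the 132 miRNAs with values. Of the immune cell markers, 5 were measured, with summed levels of 1385 to 7643 CPM on Day 4 and 1705 to 5044 CPM on Day 1, higher on Day 4 in 4 of 8 pairs, and a median difference of 0.12. This sum is made up mostly of miR-181a, with 2877 reads on Day 4, against 514 for miR-181b and 132 for miR-146b. The leukocyte miRNAs miR-142-5p, miR-142-3p, miR-150 and miR-223 were not among the 132 miRNAs with values. miR-155, induced in activated leukocytes, had a difference of 0.28 (standard error 0.33) on 51 reads on Day 4 and 45 on Day 1. miR-181b had 0.17 and miR-181a had 0.12, whereas miR-342 had -0.11 and miR-146b had -0.069. The evening pair of Cow 3 had 1.37 for miR-181a, while its other 7 pairs lay between -0.33 and 0.35.
Of the red blood cell markers, 4 were measured and all had a positive difference, with a median of 0.17 and a sum of 10803 to 31536 CPM on Day 4 and 11438 to 27012 CPM on Day 1, higher on Day 4 in 7 of 8 pairs. The defining red cell miRNAs miR-451, miR-144 and miR-486 were not among the 132 miRNAs with values. The sum is made up mostly of miR-92a, which other cells express too. Of the stromal markers, 4 were measured, with a median of -0.12 and a sum of 7726 to 11464 CPM on Day 4 and 8079 to 11757 CPM on Day 1, higher on Day 4 in 4 of 8 pairs. Most of this sum is miR-99a-5p and miR-125b, with 7736 and 4664 reads on Day 4, against 114 for miR-143 and 39 for miR-10b. miR-145, miR-199a-3p and miR-214 were not among the 132 miRNAs with values. miR-143, of smooth muscle and fibroblasts, had -0.35 (standard error 0.36), and between -0.59 and -0.067 with any 1 pair left out. The part of any cell type in these values was not tested.

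The day difference was also compared between the milking sessions. In a fit with an interaction of day and session, limma called 0 miRNAs (0.0%) at an FDR below 0.05, and 0 (0.0%) had an unadjusted p below 0.05. limma-voom was not run on this interaction. The smallest p belonged to miR-183, miR-2340 and miR-502a, each with an adjusted p of 0.965. miR-183 had a Day 4 minus Day 1 difference of 0.38 in the evening libraries and -0.31 in the morning libraries. miR-2340 had -0.039 in the evening and 0.55 in the morning, and miR-502a had 0.017 in the evening and -1.01 in the morning. With 4 pairs per session, differences of this size were not beyond the spread.

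The day difference was then compared among the cows. In the interaction of cow and day, 0 miRNAs (0.0%) passed an FDR below 0.05 in limma's moderated F test, and 11 (8.33%) had an unadjusted p below 0.05. The spread of this test comes from the 2 sessions of a cow, with 4 residual degrees of freedom. The smallest p belonged to miR-2889, miR-885 and miR-29b, each with an adjusted p of 0.175. miR-2889, a bovine-numbered miRNA, had cow means of 8.17, 8.59, 8.999 and 9.13 log2 CPM in Cow 1 to Cow 4 on Day 4, against 9.74, 8.04, 9.60 and 6.95 log2 CPM on Day 1. Its day difference was negative for Cow 1 (-1.57) and Cow 3 (-0.61) and positive for Cow 2 (0.55) and Cow 4 (2.18), and the libraries lay closer together on Day 4 (SD of the 8 libraries 0.53) than on Day 1 (SD 1.29).
miR-885, known from liver in humans, had cow means of 12.83, 11.15, 8.69 and 11.68 log2 CPM in Cow 1 to Cow 4 on Day 4, against 12.77, 11.42, 8.999 and 10.16 log2 CPM on Day 1. Only Cow 4 moved by more than 1, with 1.52 over both sessions, which put it above Cow 2 on Day 4 and below it on Day 1. Cow 1 stayed highest and Cow 3 lowest. miR-29b had 8.84, 7.95, 7.01 and 6.62 log2 CPM on Day 4, against 8.15, 8.31, 6.30 and 8.37 log2 CPM on Day 1, with the morning and evening pair of Cow 4 at -1.62 and -1.88. In both miRNAs the 2 sessions of Cow 4 moved the same way.
miR-196a was split between the cows on both days. Cow 3 had 0 reads in the morning and 1 in the evening of Day 4, against 0 in the morning and 2 in the evening of Day 1, while the other cows had 66 to 195 reads per library on Day 4 and 82 to 212 on Day 1. Counts this low in Cow 3 do not allow a day difference to be measured.

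**Figure D4:**
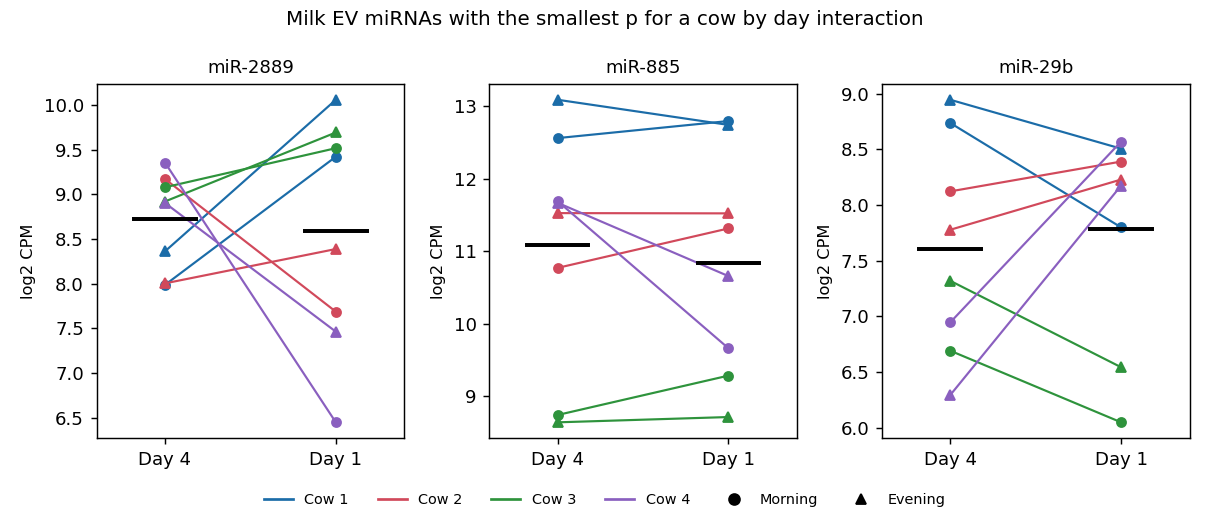
Levels in log2 CPM of the 3 miRNAs with the smallest p for an interaction of cow and day, with the Day 4 library (left) joined to the Day 1 library (right) of the same cow and session. Colours are cows, circles morning and triangles evening libraries, and black bars the means of 8 libraries. Both lines of Cow 4 run against those of Cow 1 for miR-2889 and miR-29b, and none of the 3 passed an FDR below 0.05 (adjusted p = 0.175 in limma).

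The size of the day difference was set beside that of other differences in the same 16 libraries. As a measure, the median of the absolute log2 difference over the 132 miRNAs was taken between 2 libraries. Between Day 4 and Day 1 of the same cow and session it was 0.29 to 0.71 (median 0.41, n = 8 pairs of libraries). Between evening and morning of the same cow and day it was 0.23 to 0.44 (median 0.34, n = 8), and between cows on the same day and session 0.33 to 0.71 (median 0.54, n = 24). The 3 ranges overlapped, and the pairs share libraries, so no test was made. The largest day value, 0.71, was that of the morning pair of Cow 4, in which 38 miRNAs differed by more than 1, against 12 to 25 in the other 7 pairs. The evening pair of Cow 4 had a day value of 0.30. Between evening and morning, Cow 4 had the largest value on Day 1, at 0.44, and the smallest on Day 4, at 0.23. Both of the larger values of Cow 4 thus involve its Day 1 morning library. In miRNAs with a mean of at least 7 log2 CPM, the medians were 0.35 for days, 0.27 for sessions and 0.43 for cows. Spearman's rho across miRNAs was 0.941 to 0.977 between days, 0.967 to 0.981 between sessions and 0.916 to 0.974 between cows. Without the morning pair of Cow 4, limma called 0 miRNAs between Day 4 and Day 1, as with it, and 2 were higher and 4 lower at an unadjusted p below 0.05.

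**Figure D5:**
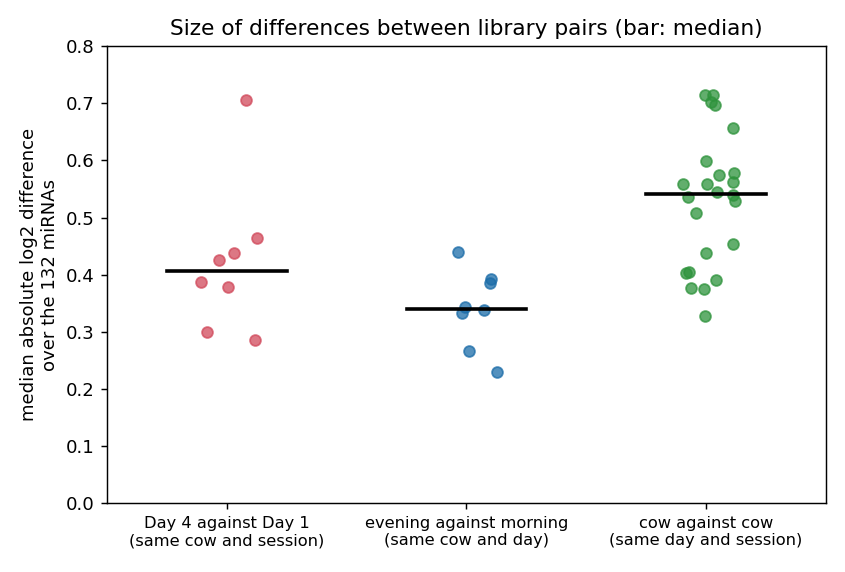
Each point is a pair of libraries, and the y axis gives the median absolute log2 difference over the 132 miRNAs, starting at 0. Pairs are Day 4 against Day 1 of the same cow and session (8), evening against morning of the same cow and day (8), and cow against cow of the same day and session (24), with medians of 0.41, 0.34 and 0.54 as black bars. The 3 clouds overlap, and the highest day value is the morning pair of Cow 4.

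The days between give a wider view. All 28 libraries were fitted in limma with the pair of cow and session and a day factor, in which every comparison uses the same Day 1 libraries. At an FDR below 0.05, 0 miRNAs (0.0%) differed on Day 2, 3 (2.27%) on Day 3 and 0 (0.0%) on Day 4, each against Day 1. At an unadjusted p below 0.05 there were 10 (7.58%) on Day 2, 18 (13.6%) on Day 3 and 4 (3.03%) on Day 4. A test of any difference among the 4 days called 0 miRNAs (0.0%) in limma, with 11 (8.33%) at an unadjusted p below 0.05. The 3 miRNAs of Day 3 were miR-374a, miR-375 and miR-92a, none of which passed on Day 4. miR-374a had differences from Day 1 of -0.13 on Day 2, -0.86 on Day 3 and -0.40 on Day 4, with adjusted p-values of 0.881, 0.0307 and 0.846 in limma. miR-375 had 0.27, 0.50 and 0.16, and miR-92a had 0.34, 0.52 and 0.17, in the same order. For all 3 the Day 4 value lay nearer to 0 than the Day 3 value, and whether Day 4 differs from Day 3 was not tested. SCC was 45000 to 300000 cells/mL in the Day 3 libraries, which lack Cow 3, against 18000 to 79000 cells/mL on Day 1, and its part in these values was not tested.
miR-193a-5p had differences from Day 1 of 0.62 on Day 2, 0.66 on Day 3 and 0.52 on Day 4. Its low level on Day 1 in the morning of Cow 4 enters all 3 of them. miR-11980 had 0.38 on Day 2, 0.24 on Day 3 and 0.78 on Day 4, and miR-652 had 0.29, 0.34 and 0.34 in the same order. None of these passed the FDR threshold in limma.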

How the data were processed

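Small RNA of milk EVs from 4 cows was sequenced in 28 libraries. Per the study's methods, Trim Galore! trimmed adapters and dropped reads of low quality, of short length or duplicated by PCR. Sequences above a CPM minimum were then assigned to bovine miRBase entries, with isomiRs joined. The deposited values are log2 CPM made by the authors with edgeR. A genome build is not given in the sources used here. Read counts were worked back from them with a prior count of 2, and all 3696 values were whole within 0.01.

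Groups and pairs came from the sample titles. Pairs are by design, since the same cow and session stand on both days. limma 3.58.1 (R 4.3.3) was run on the deposited values of the 16 libraries with a variance trend and the pair as a block (7 residual degrees of freedom), two-sided, with Benjamini-Hochberg adjustment over 132 miRNAs and an FDR below 0.05. Other statistics used Python 3.11.15, numpy 2.4.6, pandas 2.3.3 and scipy 1.17.1, and plots matplotlib 3.10.9. The fit was tested on simulated data drawn with independent normal noise around the level of each pair. Those data hold no day difference shared by the sessions of a cow and no floor for miRNAs without reads.

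The miRNAs and lists were chosen with earlier results of these data known. The text names the 8 miRNAs with the smallest p in each direction, any with all 8 pairs moving alike, the 10 most abundant, the 5 with the steadiest differences, 2 members of each of 24 lists with the smallest p, and 3 from each interaction. Alternatives covered blocks, cow means, other library sets, scalings, added CPM (10 and 100), a filter, SCC and read totals as covariates, voom, and omission of cows and pairs. 3 were chosen after the data were seen.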

Additional observations from a re-analysis of the deposited data

Results flagged for a closer look

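Among 97 sets of 8 values that were screened (paired differences of the named miRNAs, levels on each day of the 16 with the smallest p, SCC and read totals), 7 held a value far from the rest. Chance alone marks about 1 set in 20. In the differences of Day 4 minus Day 1 (log2), the morning pair of Cow 2 stood apart for miR-11980, at -0.28 against 0.60 for the nearest pair. The morning pair of Cow 4 stood apart for miR-193a-5p, at 2.16 against 0.80 for the nearest, and for miR-2285av, at 0.85 against -0.19. The evening pair of Cow 3 stood apart for miR-181a, at 1.37 against 0.35. The morning pair of Cow 1 stood apart for miR-10b, at 1.00 against 0 for the nearest. That 0 is the value of pairs without reads on either day, so it does not show a steady level. In the levels, the evening library of Cow 2 on Day 4 was low for miR-652, at 9.53 log2 CPM against 10.39 for the nearest, and the morning library of Cow 3 on Day 1 was low for miR-194, at 5.17 log2 CPM against 6.19, on 4 reads.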

How the results depend on the processing

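The count of miRNAs past the FDR threshold in limma stayed at 0 higher and 0 lower on Day 4 in the 33 alternatives, except that 1 miRNA, miR-11980, was called higher without Cow 2. With no replicate block it was 0 as well, with day alone (0 at an unadjusted p below 0.05) and with cow and session as covariates (3 higher and 1 lower at an unadjusted p below 0.05). Both interaction counts stayed at 0 without the variance trend, with the filter and under both other scalings. For the interaction of cow and day, 19 miRNAs had an unadjusted p below 0.05 with library medians set equal, against 11 as deposited. With library medians set equal, the median difference over all miRNAs moved to 0.093. Of the 61 named miRNAs, 33 kept their sign in every alternative run, and 28 did not. The cause was not tested in any of them.

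The sign was turned in the morning libraries (-0.11 for let-7a-5p, -0.18 for let-7b, -0.11 for miR-3596, -0.081 for let-7c, -0.11 for let-7f, -0.067 for miR-26c, -0.0051 for miR-200b, -0.20 for miR-16b, -0.055 for miR-181a, -0.31 for miR-183, 0.033 for miR-10b, -0.090 for miR-196a and -0.032 for miR-26b), the evening libraries (-0.039 for miR-2340, 0.052 for miR-182, 0.017 for miR-502a and -0.35 for miR-2889), with library medians set equal (0.013 for miR-27b and 0.060 for miR-26a), with quantile normalization (-0.024 for let-7b, -0.062 for miR-183, 0.0033 for miR-10b, -0.015 for miR-26b and 0.0065 for miR-26a), with read totals as a covariate (-7.5e-05 for let-7b), in limma-voom (-0.0023 for let-7b, 0.025 for miR-10b, 0.013 for miR-26a and -0.10 for miR-2889) and with a linear trend over all 28 libraries (0.075 for miR-26a and -0.095 for miR-2889). It was turned without Cow 1 (-0.17 for miR-183, -0.16 for miR-196a and 0.065 for miR-26a), without Cow 2, with or without miR-190b (-0.020 for miR-26c, -0.034 for miR-200b, -0.032 for let-7i, 0.038 for miR-125a and 0.039 for miR-23a), without Cow 3 (-0.044 for miR-26c, -0.090 for miR-181a and -0.15 for miR-155) and without Cow 4 (-0.20 for let-7b, -0.21 for miR-3596, -0.079 for let-7c, -0.13 for let-7d, 0.35 for miR-29b, 0.096 for miR-182, 0.0012 for miR-10b, 0.082 for miR-26a, -0.087 for miR-320a, -0.54 for miR-2889 and -0.17 for miR-885).

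With each pair left out in turn, 30 of the 61 named miRNAs kept their sign but moved by over 1.5 times, and the difference crossed 0 in 18. Differences that crossed 0 ran from -0.087 to 0.070 for miR-26a, -0.18 to 0.13 for let-7b, -0.021 to 0.15 for let-7f, -0.028 to 0.040 for miR-26c, -0.13 to 0.19 for miR-183, -0.081 to 0.16 for miR-196a, -0.0035 to 0.064 for miR-200b, -0.26 to 0.40 for miR-2889, -0.16 to 0.24 for miR-3596, -0.34 to 0.0070 for miR-320b, -0.060 to 0.18 for miR-181a, -0.0047 to 0.17 for let-7a-5p, -0.050 to 0.25 for let-7c, -0.069 to 0.25 for let-7d, -0.34 to 0.065 for miR-29b, -0.28 to 0.018 for miR-182, -0.0092 to 0.24 for miR-320a and -0.0049 to 0.36 for miR-885. The mean log2 ratio ran from -0.14 to 0.19 for SCC and from -0.081 to 0.070 for read totals, with no call in any of them. Depth limits the 38 miRNAs with a mean below 7 log2 CPM, where a few reads decide a difference.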
